A study of Mus musculus with 9 samples.

Results

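Expression of 9 genes of the Hedgehog pathway was examined in E10.5 mouse hearts from which *Ctcf* had been deleted with the *Nkx2.5-Cre* driver. The set was given by symbol as *Scube2*, *Ptch1*, *Smo*, *Gli1*, *Gli2*, *Gli3*, *Hhip*, *Sufu*, *Boc* and *Gas1*, 10 genes in all, and 9 of them were found among the 14011 genes of the expression table. *Hhip*, a decoy receptor for Hedgehog ligands, has no row in the table and was not analysed here. *Scube2* was chosen by its normalized values, as one of the largest falls in homozygous hearts, so its differences involving homozygotes are given as a description without a test.

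RNA was sequenced from 9 libraries, 3 for each of 3 genotypes, and each library came from a pool of 6 hearts taken from crosses on a mixed strain background. Homozygotes carried *Ctcf* fl/fl; *Nkx2.5-Cre*/+ and heterozygotes carried *Ctcf* fl/+; *Nkx2.5-Cre*/+. Controls lacked Cre and had the floxed allele, which the sample labels give as *Ctcf* fl/fl and the methods of the study as *Ctcf* fl/+. A comparison with controls therefore also includes the Cre allele, and the driver acts in cardiac progenitors and their descendants, so cells of other origin in the heart keep *Ctcf*. The library is the replicate (n = 3 per genotype). The 3 control columns of the table are named Het and were assigned to controls because the remaining columns are named for the double heterozygotes (DH) and the knockouts (KO). Library numbers for controls and heterozygotes are those of the column names, which match no sample title.

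Hedgehog proteins are secreted lipid-modified signals that pattern the embryo, and they need proteins of the Dispatched and SCUBE families to leave the cells that make them. The ligand binds Patched together with the co-receptors Cdon, Boc and Gas1, which frees Smoothened to act in the primary cilium, where Gli transcription factors are released from Sufu and switch on targets such as *Gli1*, *Ptch1* and *Hhip*. In the embryonic heart the pathway is known for its part in second heart field progenitors, the outflow tract and atrial septation, with ligand coming largely from neighboring pharyngeal endoderm.

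Values are normalized read numbers, in which the authors scaled reads plus 0.5 to the effective library size as in CPM, and total reads ran from 4294537 to 11629365 per library. 1 read was worth between 0.0901 and 0.231 of the normalized value. *Ctcf* itself stood at 121, 122 and 122 in control libraries 1 to 3, at 101, 94.2 and 97.0 in heterozygotes, and at 79.6, 80.0 and 84.7 in homozygotes, so the assigned columns followed the genotypes without overlap. Cardiomyocyte, endothelial, epicardial and cushion markers were detected in every library. Control library 1 stood apart in the summed value of 4 liver markers, 774 there against 56.6 to 62.9 in the other control libraries. *Afp* at 595, *Apoa1* at 115 and *Ttr* at 63.4 were high in it, while *Alb* was at 1 read. The endoderm markers *Cdh1* at 15.7, *Sox2* at 3.20 and *Krt8* were also highest there. *Epcam*, the other endoderm marker measured, was highest in heterozygote library 1. Since hearts were measured in bulk, fewer cells of a type and less RNA per cell cannot be told apart.

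The promoters of *Scube2* and *Gas1* are shown because these genes had the lowest and the highest difference between homozygotes and controls among the 9. Sequences are from RefSeq on GRCm38.p6 and run from 250 bases before to 50 bases after the start site, 5′ to 3′ on the minus strand, with GC boxes (GGGCGG, either strand, overlaps counted) in capitals. The *Scube2* window is chr7:109865630-109865929 and the *Gas1* window is chr13:60177486-60177785.
Scube2: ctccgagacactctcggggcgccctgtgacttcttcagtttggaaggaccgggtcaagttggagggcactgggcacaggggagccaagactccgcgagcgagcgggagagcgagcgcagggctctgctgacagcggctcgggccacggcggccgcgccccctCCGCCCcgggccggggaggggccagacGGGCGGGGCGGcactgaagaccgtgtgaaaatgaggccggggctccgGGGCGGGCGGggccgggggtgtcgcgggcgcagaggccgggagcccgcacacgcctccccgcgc
Gas1: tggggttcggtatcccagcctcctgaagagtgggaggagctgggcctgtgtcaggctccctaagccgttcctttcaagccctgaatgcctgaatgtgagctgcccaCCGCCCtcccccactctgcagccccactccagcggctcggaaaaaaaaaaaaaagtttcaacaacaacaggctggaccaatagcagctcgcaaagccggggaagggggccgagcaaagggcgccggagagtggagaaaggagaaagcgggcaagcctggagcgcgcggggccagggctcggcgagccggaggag
The *Scube2* window was 75.3% G or C, held 36 CpG and carried 5 GC boxes. The *Gas1* window was 62.3% G or C, with 17 CpG and 1 GC box. A GC box was found in 7 of the 8 windows matched to the named genes, all but that of *Smo*, and in 35.7% of all 32851 windows. The Gli motif GACCACCCA, searched on both strands, was in 0.253% of all windows and in 0 of the 8. The core of the CTCF motif (CC, any 3 bases, AGG, any base, GGC), also on both strands, was in 3.43% of all windows and in 0 of the 8. *Gli1* and *Boc* have no entry among these windows.

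*Scube2*, which encodes a secreted protein that helps release Hedgehog ligand, was lower in heterozygotes than in controls and lowest in homozygotes. On NCBIM37 the gene lies on the minus strand at chr7:116942204-117009193. Its normalized value was 13.0, 11.6 and 15.1 in control libraries 1 to 3, from 111, 114 and 103 reads. In heterozygotes it was 7.80, 9.90 and 8.88, and in homozygotes 2.38, 2.45 and 1.76, the last from 10, 14 and 19 reads. No library of one genotype overlapped another genotype, and the means were 13.2 ± 1.76, 8.86 ± 1.05 and 2.20 ± 0.384 (SD, n = 3 each). Homozygotes thus kept 16.6% of the control mean and 24.8% of the heterozygote mean, which puts controls 6.03-fold and heterozygotes 4.03-fold above them.

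On the log2(value + 0.5) scale, which understates changes at low values, *Scube2* differed by -2.35 between homozygotes and controls and by -1.80 between homozygotes and heterozygotes. This placed it at position 7 among 14011 genes ordered from the largest fall against controls, just after *Gsg1l* at -2.39 and just before *Afp* at -2.30, whose control level rested largely on library 1. Against heterozygotes it stood at position 17. Between heterozygotes and controls, *Scube2* had a difference of -0.55 (SE 0.17, 95% interval -0.93 to -0.18), a heterozygote mean at 66.9% of the control mean. It did not pass the test across all genes (limma adjusted p = 0.453, unadjusted p = 0.00697), and the control libraries in that comparison were also used in choosing the gene. Groups that do not overlap with the lower values in heterozygotes made up 6.93% of all genes.

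The 5 genes most like *Scube2* were found by the root mean square difference over the 9 libraries, on log2 values relative to the control mean, over the 10114 genes whose mean reached 10 in some genotype. *Gsg1l*, which encodes an auxiliary subunit of AMPA-type glutamate receptors, was the closest, at 0.15. Its means were 16.4 ± 2.34 in controls, 12.6 ± 1.47 in heterozygotes and 2.74 ± 0.469 in homozygotes. *S100a1*, a calcium-binding protein of cardiomyocytes, followed at 0.41, with means of 18.1 ± 1.33, 10.5 ± 1.21 and 4.39 ± 1.23. *Tnni2*, the fast skeletal troponin I, was at 0.50, *Fgl2*, a secreted fibrinogen-like protein, at 0.50 and *Epdr1* at 0.51. Unlike *Scube2*, *Tnni2* had a heterozygote mean of 23.6 ± 3.63, a log2 difference of 0.23 from controls.

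Genes around *Scube2* had smaller differences, of either sign. Of the 3 nearest genes of the table on each side, *Nrip3*, 16.7 kb away, had 0.959 ± 0.151 in controls, 1.15 ± 0.372 in heterozygotes and 1.91 ± 0.126 in homozygotes, from 5 to 22 reads per library. The homozygote values of *Nrip3* lay above those of both other genotypes, with a log2 difference from controls of 0.73 (95% interval 0.13 to 1.33, limma adjusted p = 0.0937). *Dennd5a*, 28.1 kb away on the other side and a regulator of Rab GTPases, was the neighbor that passed the test, at 165 ± 3.07 in controls and 147 ± 2.38 in homozygotes (log2 difference -0.16, limma adjusted p = 0.0460). The remaining neighbors differed from controls by 0.39 for *D930014E17Rik*, 0.26 for *Tmem9b*, 0.02 for *Tmem41b* and -0.19 for *Ipo7*, with limma adjusted p from 0.0574 to 0.889. Homozygote values of *D930014E17Rik* also lay above both other genotypes. Those of *Tmem9b* lay above controls, and those of *Dennd5a* and *Ipo7* below controls, without overlap. Of all genes, 16.6% lay above controls and 16.5% below, and 15.2% were called.

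**Figure D1:**
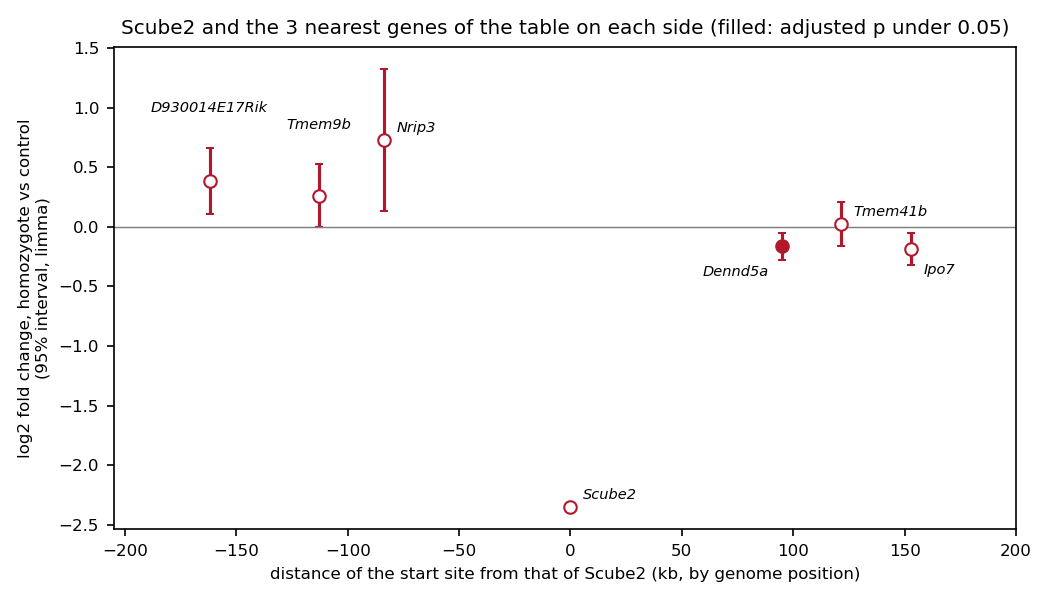
Log2 fold change of homozygotes against controls (vertical axis, log2(value + 0.5), with 95% interval from limma) for *Scube2* and its 3 nearest genes of the table on each side, by distance between start sites in kb. *Scube2*, which was not tested and has no interval, lies at -2.35, and its neighbors lie between -0.19 and 0.73. The filled point passed an adjusted p of 0.05.

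*Scube2* has relatives in the SCUBE family, and they had other patterns. *Scube1* stood at 14.6, 19.2 and 23.0 in controls, 25.4, 23.4 and 20.2 in heterozygotes and 21.7, 17.2 and 13.0 in homozygotes. Its groups overlapped in homozygotes against controls, with a log2 difference of -0.13 (limma adjusted p = 0.678). *Scube3* stood at 11.8, 12.8 and 11.3 in controls, 15.0, 19.4 and 14.2 in heterozygotes and 11.7, 7.36 and 11.1 in homozygotes. All heterozygote values of *Scube3* were above those of the other genotypes. It fell in homozygotes against heterozygotes by 0.67 on the log2 scale (limma adjusted p = 0.0204), while its difference from controls was -0.26 (adjusted p = 0.336). In heterozygotes against controls it differed by 0.41 (unadjusted p = 0.0331, adjusted p = 0.624). Among ligands, *Dhh* was the one with a row in the table, at means of 6.64 ± 0.902, 5.96 ± 0.780 and 7.04 ± 0.812, and *Shh* and *Ihh*, as well as *Disp1*, *Disp2*, *Foxf1a*, *Foxf2* and *Foxl1*, have none.

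Among the receptors of the set, *Ptch1*, which encodes the ligand-binding Patched protein and is also a pathway target, overlapped between all genotypes. It stood at 42.2, 32.5 and 42.9 in controls, 46.1, 35.5 and 40.5 in heterozygotes and 33.7, 36.5 and 34.8 in homozygotes. The log2 difference of homozygotes from controls was -0.15 (95% interval -0.40 to 0.10, limma adjusted p = 0.418), which leaves a fall of up to 0.40 within the interval. Against heterozygotes it was -0.21 (-0.45 to 0.04, adjusted p = 0.262). *Smo*, the signal transducer that Patched holds in check, stood at 72.7, 79.3 and 81.8 in controls, 92.6, 88.5 and 77.6 in heterozygotes and 88.5, 64.9 and 78.0 in homozygotes. Homozygote library 2 had the lowest *Smo* value of the 9, and the difference from controls was -0.02 (95% interval -0.24 to 0.19, adjusted p = 0.905).

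Co-receptors differed from controls in both directions in homozygotes. *Boc*, a cell-surface immunoglobulin-family protein that binds the ligand, stood at 10.5, 11.1 and 10.2 in controls, 11.8, 9.90 and 8.88 in heterozygotes and 6.93, 8.04 and 7.52 in homozygotes, from 30 to 120 reads per library. All homozygote values lay below all others. *Boc* fell against controls by 0.48 on the log2 scale (SE 0.14, 95% interval -0.78 to -0.17, limma adjusted p = 0.0367), to 70.7% of the control mean. Its difference from heterozygotes was -0.41 (adjusted p = 0.0695). *Gas1*, a membrane-anchored co-receptor, stood at 34.2, 34.0 and 39.8 in controls, 45.2, 48.3 and 36.1 in heterozygotes and 49.4, 41.9 and 50.1 in homozygotes. Homozygote values of *Gas1* were all above control values, and heterozygote values overlapped both. *Gas1* rose against controls by 0.38 on the log2 scale (SE 0.11, 95% interval 0.14 to 0.62, adjusted p = 0.0340), to 131% of the control mean. Its difference from heterozygotes was 0.13 (adjusted p = 0.485), and heterozygotes differed from controls by 0.25 (unadjusted p = 0.0412, adjusted p = 0.650). *Cdon*, which is related to *Boc* and came from the wider list of pathway genes, stood at 70.1, 59.1 and 66.3 in controls, 58.3, 64.5 and 53.2 in heterozygotes and 45.3, 50.7 and 43.4 in homozygotes. All homozygote values of *Cdon* were below all others, and it fell by 0.48 against controls (adjusted p = 0.00358) and by 0.33 against heterozygotes (adjusted p = 0.0277).

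The *Boc* and *Gas1* calls were lost in several fits in which the log2 differences stayed between -0.42 and -0.51 for *Boc* and between 0.34 and 0.38 for *Gas1*. With the trend with gene length removed, adjusted p was 0.0614 for *Boc* and 0.0531 for *Gas1*, with log2 differences of -0.45 and 0.36, and limma without the mean-variance trend gave 0.0986 for *Gas1*, with the same difference of 0.38. Without control library 1, the one with high liver markers, limma adjusted p was 0.0838 for *Boc* and 0.0975 for *Gas1*, with log2 differences of -0.48 and 0.35. Neither passed without control library 2 (0.107 and 0.104, with differences of -0.44 and 0.34), homozygote library 1 (0.0903 and 0.0955, with -0.42 and 0.35) or homozygote library 3 (0.0882 and 0.115, with -0.48 and 0.34). Without control library 3, *Gas1* passed at 0.0391 and *Boc* did not, at 0.0826 with a difference of -0.51.

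Among the Gli factors, *Gli2*, the main activator, was called lower in homozygotes against heterozygotes. It stood at 8.21, 9.10 and 8.26 in controls, 12.3, 12.9 and 8.19 in heterozygotes and 8.29, 4.99 and 7.16 in homozygotes. Heterozygote library 3 lay within the other genotypes, so the groups overlapped. The log2 difference of homozygotes from heterozygotes was -0.67 (SE 0.20, 95% interval -1.10 to -0.24, limma adjusted p = 0.0412). From controls it was -0.33 (-0.76 to 0.10, adjusted p = 0.303). The call against heterozygotes passed in the fits without heterozygote library 3 (adjusted p = 0.0181) or homozygote library 1 (0.0269). It was lost, with the log2 difference at the same -0.67, without control library 1 (0.0504), 2 (0.0555) or 3 (0.0515), in the limma fit of only heterozygotes and homozygotes (0.0673) and without the mean-variance trend (0.0866). It was also lost without heterozygote library 1 (0.131, log2 difference -0.59) or 2 (0.146, -0.56), without homozygote library 2 (0.139, -0.48) or 3 (0.0779, -0.72), and after correction for gene length (0.0754, -0.60).

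*Gli3*, the main repressor form of the family, stood at 32.9, 25.9 and 28.3 in controls, 30.4, 24.8 and 19.3 in heterozygotes and 21.7, 20.7 and 26.2 in homozygotes. Control library 2 and homozygote library 3 crossed, and the log2 difference was -0.34 (95% interval -0.66 to -0.02), with an unadjusted p of 0.0413 and a limma adjusted p of 0.150. *Gli1*, a transcriptional target widely used as a readout of pathway activity, was near the lower end of detection, and an exon of it overlaps *Arhgap9* on the opposite strand in GENCODE M1, whose reads the counting is not stated to separate. It stood at 1.92, 2.08 and 2.27 in controls, 6.62, 1.45 and 0.807 in heterozygotes and 2.38, 0.762 and 2.30 in homozygotes, from 3 to 67 reads. Heterozygote library 1 held 67 of these reads and the other 2 heterozygote libraries 11 and 3. The summed value of the 3 second heart field markers measured was also highest in that library, at 105 against 77.0 to 97.1 in the other 8. Of these, *Isl1* was at 15.1 against 3.58 to 7.74 and *Fgf10* at 3.29 against 1.37 to 3.09, while *Hand2* at 86.3 was below the 88.5 of control library 2. Among targets, *Ptch1* (46.1 against 32.5 to 42.9), *Osr1* (6.23 against 1.44 to 4.27) and *Mycn* had their highest value there, while *Ccnd1*, *Ccnd2*, *Bcl2*, *Foxc1* and *Foxc2* did not. The part of these markers in the *Gli1* value was not tested. The difference of *Gli1* between homozygotes and controls was -0.26 (95% interval -1.35 to 0.84, limma adjusted p = 0.784), an interval that holds changes of either sign. *Sufu*, the cytoplasmic inhibitor of the Gli factors, stood at 47.5, 44.6 and 45.1 in controls, 44.9, 38.9 and 43.9 in heterozygotes and 44.8, 38.2 and 41.7 in homozygotes. It had the narrowest interval of the set, with a difference of -0.14 (-0.32 to 0.04, adjusted p = 0.291).

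**Figure D2:**
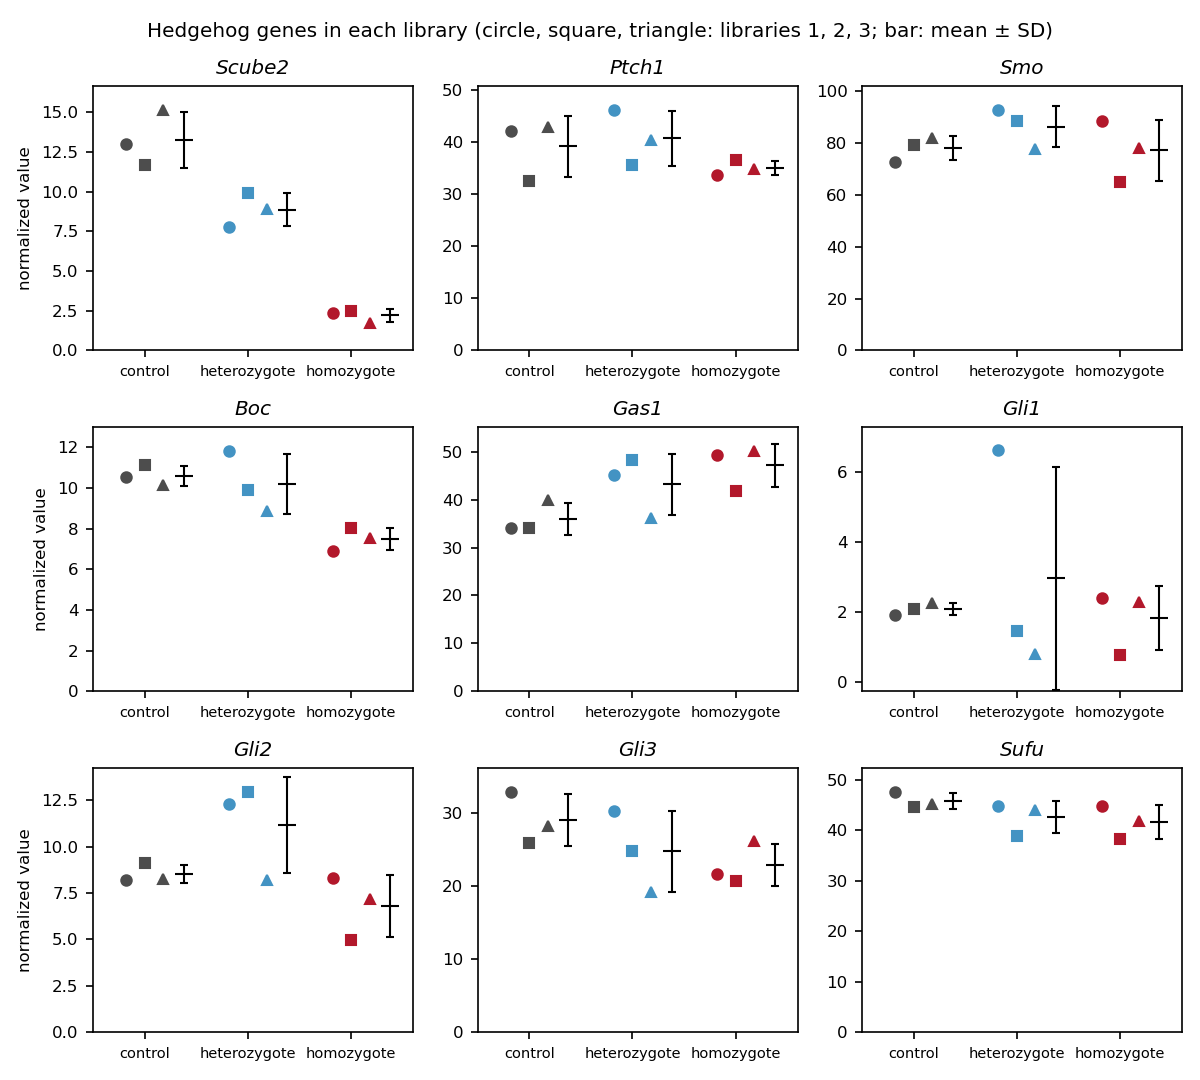
Normalized value (vertical axis) of the 9 Hedgehog genes in each library by genotype, with circle, square and triangle for libraries 1, 2 and 3 and bars for mean ± SD (n = 3). *Scube2* separates all 3 genotypes, from 11.6 to 15.1 in controls, 7.80 to 9.90 in heterozygotes and 1.76 to 2.45 in homozygotes, while *Gli1* has 1 high heterozygote library at 6.62, whose error bar reaches below 0.

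Counted together, 2 of the 8 genes tested in homozygotes against controls were called, *Boc* lower and *Gas1* higher, where 15.2% of all 14011 genes were called. The same 2 were called by edgeR on the recovered reads, which called 15.8% of all genes, and 3 of 8 had an unadjusted p under 0.05, where 29.6% of all genes did. In homozygotes against heterozygotes, 1 of 8 was called, *Gli2* lower, where 13.6% of all genes were called, and 2 of 8 had an unadjusted p under 0.05, where 27.6% of all genes did. In heterozygotes against controls, 0 of 9 were called by limma and 0 by edgeR, and 2 (*Scube2* and *Gas1*) had an unadjusted p under 0.05. There, 0.143% of all genes were called by limma, with 0.0928% higher and 0.05% lower, 0.15% were called by edgeR and 7.37% had an unadjusted p under 0.05. The control libraries were also used in choosing *Scube2*, so its p in that comparison is not a fair test. Among the other 8 genes, *Gas1* was the one with an unadjusted p under 0.05. With so few genes, none of these shares was read as different from that of all genes.

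Groups that did not overlap were counted as well, leaving out *Scube2* where homozygotes are compared, since its choice fixed that outcome. Of the other 8, homozygotes lay below controls in *Boc* and above them in *Gas1*, where 16.5% of all genes lay below and 16.6% above. They lay below heterozygotes in *Boc* and above them in 0 of 8, where 15.5% of all genes lay below and 15.3% above. Heterozygotes lay below controls in *Scube2* alone, whose choice also used the control libraries, so this is not a fair count. They lay above controls in 0 of 9, where 6.93% of all genes lay below and 7.41% above. The median log2 difference of the 8 genes other than *Scube2* was -0.20 against controls and -0.19 against heterozygotes, with 7 of 8 below 0 in each, beside a median over all genes of -0.00 in both. After correction for gene length, the medians were -0.13 with 7 of 8 below 0 against controls and -0.14 with 6 of 8 below 0 against heterozygotes. In heterozygotes against controls it was 0.04, with 3 of 8 below 0. The 3 comparisons share libraries, so they are not independent of each other.

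**Figure D3:**
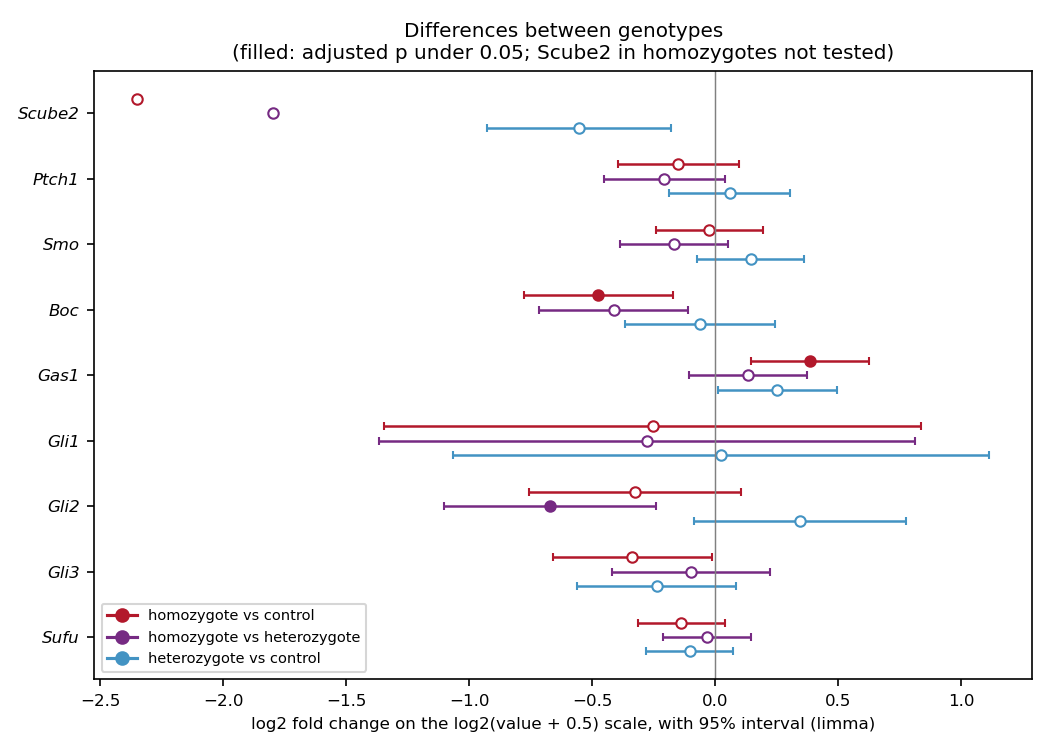
Log2 fold change (horizontal axis, log2(value + 0.5)) with 95% interval from limma for the 9 genes in each comparison, except *Scube2* in homozygotes, which was not tested. *Scube2* lies at -2.35, -1.80 and -0.55, and the called genes, shown filled, are *Boc* at -0.48 and *Gas1* at 0.38 against controls and *Gli2* at -0.67 against heterozygotes.

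Levels can be compared between genes only per length, so values were divided by the exonic length in kb. On that scale *Smo* was the highest of the 9 in controls at 20.6 ± 1.25 per kb, followed by *Gas1* at 12.2 ± 1.12. *Sufu* at 6.59 ± 0.228 and *Ptch1* at 5.96 ± 0.886 followed, with overlapping ranges. *Scube2* was the fifth at 3.20 ± 0.425 and overlapped *Gli3* at 3.03 ± 0.371. *Boc* at 2.38 ± 0.110, *Gli2* at 1.24 ± 0.0729 and *Gli1* at 0.553 ± 0.0457 closed the order without overlap. In heterozygotes *Scube2* was the seventh, at 2.14 ± 0.254 per kb, overlapping *Boc* at 2.29 ± 0.335. In homozygotes it was the eighth, at 0.531 ± 0.0929, and its range overlapped that of *Gli1* at 0.480 ± 0.241. *Smo* and *Gas1* kept the top of the order in all genotypes, at 20.4 ± 3.12 and 15.9 ± 1.54 per kb in homozygotes.

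The other genes of the pathway came from a list of 53, of which 46 had a row. Between homozygotes and controls, 8 of these 46 genes were called, or 17.4%, with 1 higher and 7 lower, and 35 of 46 were below 0 with a median of -0.17. Of all genes, 7.19% were called higher and 8.03% lower. No counts of this list, by role or in full, were corrected for gene length. The targets *Ccnd2*, a cyclin of the cell cycle, and *Bcl2*, an inhibitor of apoptosis, had the smallest adjusted p. *Ccnd2* stood at 588, 611 and 631 in controls, 525, 556 and 602 in heterozygotes and 413, 480 and 455 in homozygotes. It fell by 0.44 on the log2 scale against controls (limma adjusted p = 0.00117) and by 0.32 against heterozygotes (adjusted p = 0.00895), with no overlap with homozygotes. *Bcl2* stood at 32.5, 33.9 and 31.6 in controls, 28.6, 27.3 and 28.7 in heterozygotes and 23.3, 24.3 and 20.6 in homozygotes, so that the 3 genotypes did not overlap. It fell by 0.52 against controls (adjusted p = 0.00181). Both are targets of many other signals as well, and the 5 targets that were not called, *Foxc1*, *Foxc2*, *Ccnd1*, *Mycn* and *Osr1*, had differences of 0.08, 0.01, 0.02, -0.16 and -0.44.

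Of 18 genes of signal transduction, 2 fell and 1 rose in homozygotes against controls, a share of 16.7% beside 15.2% of all genes. *Prkaca*, the catalytic subunit of protein kinase A that phosphorylates Gli factors, was among those that fell, by 0.26 (limma adjusted p = 0.0305). *Spop*, a substrate adaptor of the ubiquitin ligase that degrades Gli proteins, rose by 0.21 (adjusted p = 0.0357), from 99.6, 101 and 104 in controls to 110, 124 and 120 in homozygotes. Of 13 genes of the cilium, 12 were below 0, where 50.1% of all genes were, and 2 fell, a share of 15.4% that is near the share of all genes called. They were *Ift172*, a subunit of intraflagellar transport, by 0.30 (adjusted p = 0.0455) and *Dync2h1*, its retrograde motor, by 0.49 (adjusted p = 0.0436). *Lrp2*, an endocytic co-receptor, had a difference of -0.53 that did not pass (adjusted p = 0.348), and its value of 39.9 in control library 1 stood against 9.86 to 18.2 in the other 8.

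In homozygotes against heterozygotes 12 of the 46 were called, or 26.1%, with 1 higher and 11 lower, where 6.87% of all genes were called higher and 6.70% lower. *Spop* again rose, by 0.24 (limma adjusted p = 0.0242). The genes that fell included *Scube3*, *Cdon*, *Ccnd2*, *Bcl2*, *Prkaca* and *Ift172*, together with *Evc2*, a ciliary partner of Smoothened, by 0.48, *Gpc3*, a proteoglycan that binds the ligand, by 0.28, *Ift122* by 0.34 and the target *Mycn* by 0.26. In heterozygotes against controls 0 of 46 were called by limma, 2 had an unadjusted p under 0.05 and the median was -0.01, beside 0.143% of all genes called and 7.37% with an unadjusted p under 0.05. The list was described by counts and was not tested as a group.

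**Figure D4:**
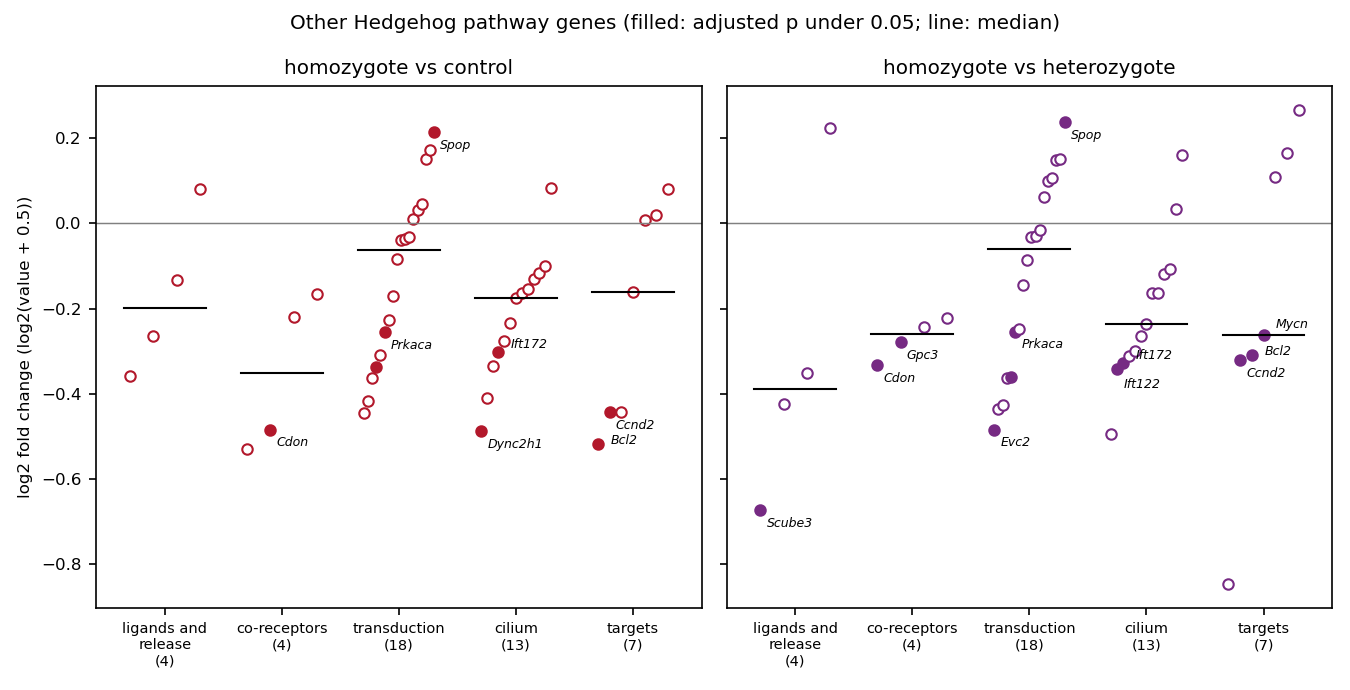
Log2 fold change (vertical axis, log2(value + 0.5)) of the 46 other Hedgehog pathway genes by role, for homozygotes against controls and against heterozygotes, with called genes filled, those described in the text named, and a line at the median. In the left panel 1 gene was called higher and 7 lower, and in the right panel 1 higher and 11 lower.

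Most markers of the erythroid and epicardial lists rose with the homozygous genotype. Of all genes, 15.2% were called in homozygotes against controls and 13.6% against heterozygotes. Counts of 1 or 2 calls in a list were not read as different from these shares. Of 4 erythroid markers, 4 rose against both other genotypes, and their summed value was 14837 to 20718 in controls, 11762 to 19692 in heterozygotes and 25804 to 33604 in homozygotes. Of 6 epicardial markers 4 rose, with sums of 411 to 473, 439 to 464 and 572 to 639. Of 8 cardiomyocyte markers 2 fell against controls and 4 against heterozygotes, with sums of 12617 to 15154, 14527 to 17648 and 11042 to 14133. Cushion mesenchyme markers fell in 2 of 6 cases. Another of them, *Col1a1*, was not called and stood higher, at 361, 207 and 213 in homozygotes against 185, 181 and 180 in controls. Endothelial and endocardial markers rose in 1 and fell in 1 of 7 against controls. Of 3 second heart field, 4 foregut endoderm, 2 macrophage and 4 liver markers 0 were called. No marker of the cushion, second heart field or epicardial lists was at 0 reads in any library, while *Sox2* was at 0 in 1 library and *Alb* in 2, and the 5 neural crest markers have no row. The part of these cell types in the differences of *Scube2*, *Boc*, *Gas1* and *Gli2* was not tested.

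**Figure D5:**
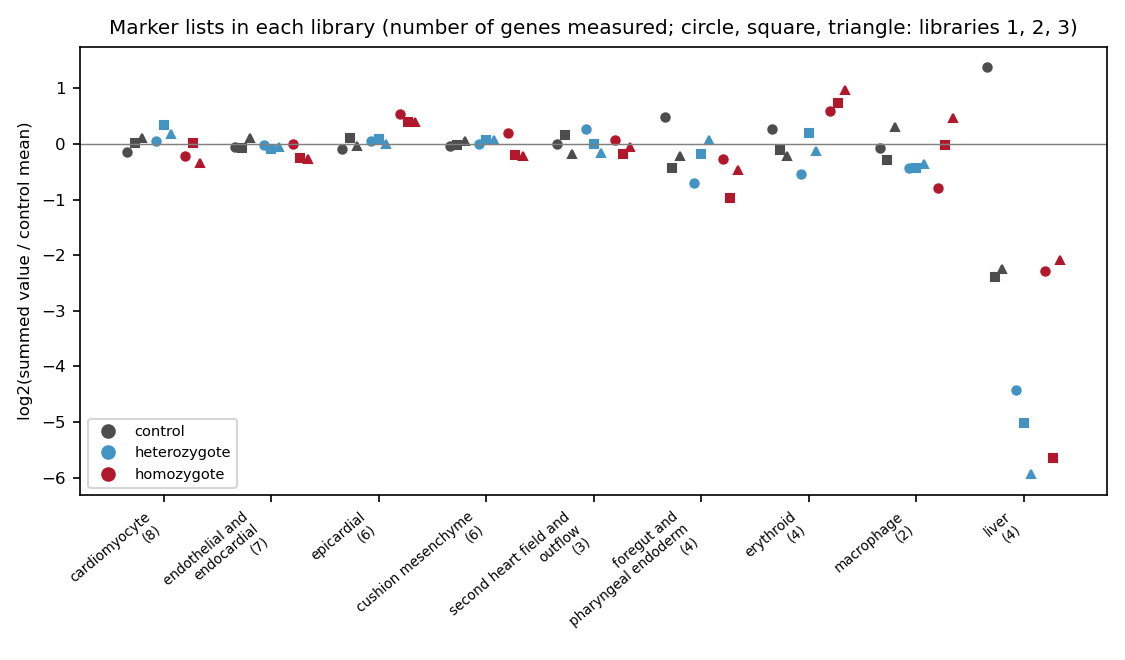
Summed normalized value of each marker list in each library, as log2 of the ratio to the control mean (vertical axis), with the number of genes measured below each list and circle, square and triangle for libraries 1, 2 and 3. The homozygote libraries lie above the other genotypes for the erythroid and epicardial lists, and control library 1 lies above the rest for the liver list.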

How the data were processed

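RNA-seq libraries were made from pools of 6 E10.5 hearts with 3 libraries per genotype. Per the labels' processing notes, the authors used CASAVA 1.8, cutadapt 1.6.1, RSEM 1.20, Bowtie2 0.12.7 and limma with build NCBIM37, whose roles and order are not stated there. The authors deposited normalized signal values, found to be whole reads plus 0.5 scaled as CPM to an effective library size equal to total reads times the TMM factor (0.955 to 1.03). Whole reads were recovered with a tolerance of 0.01 and added up to 4294537 to 11629365 per library. As the values are not counts, log2(value + 0.5) went into a limma fit (version 3.58.1, R 4.3.3) of the 9 libraries in 3 groups, with its mean-variance trend option, and p-values were adjusted by Benjamini-Hochberg over 14011 genes and called when under 0.05. All p-values are two-sided.

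The Hedgehog genes, the wider pathway list and the marker lists (cardiomyocyte, endothelial and endocardial, epicardial, cushion mesenchyme, second heart field, foregut endoderm, neural crest, erythroid, macrophage, liver) were chosen with earlier results of these data known. The named genes are all members, pathway genes called in any comparison, *Scube1* and a few ligand and release genes, the 5 genes most like *Scube2* and its 3 neighbors on each side. A few listed pathway genes were counted but are not reported here by name. Further pathway genes and markers were named after their values were seen. GENCODE M1 gave the coordinates and the exonic lengths of 13987 genes. Alternatives were other pseudocounts, filters, scalings, thresholds and subsets of libraries, edgeR 4.0.16 and voom on the reads as recovered, a loess correction for gene length (span 0.3) and a replicate block. The methods were tested on simulated data. No 2 libraries of a genotype agreed within sampling noise (chi-square divided by its degrees of freedom was 3.33 to 7.35).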

Additional observations from a re-analysis of the deposited data

How the results depend on the processing

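No gene of the set changed call in heterozygotes against controls, with 0 called in all 22 alternatives. In homozygotes against controls the count of 2 became 1 (*Boc*) in limma without the trend and 0 with the gene length trend removed or at an adjusted p under 0.01, and leaving out 1 library gave 0 to 2. In homozygotes against heterozygotes the count of 1 became 0 in the fit of only these groups, in limma without the trend, with the gene length trend removed and at an adjusted p under 0.01, and 2 (*Boc* and *Gli2*) at under 0.1, and leaving out 1 library gave 0 to 1. The cause was not tested. Adjusted p ranged over the alternatives from 0.0326 to 0.107 for *Boc*, from 0.0169 to 0.115 for *Gas1* and from 0.0181 to 0.146 for *Gli2*. With a replicate block by the number in the column name, 0 genes were called in either comparison with homozygotes. These numbers are not known to pair the libraries, since same-numbered libraries correlated from -0.14 to 0.13 over 9 pairs. The difference of *Scube2*, a description because its choice fixed the sign, was -1.86 with a pseudocount of 2, -2.66 with voom and -2.68 with edgeR against controls, and -1.37, -2.08 and -2.10 against heterozygotes. Signs turned only for uncalled differences. For *Smo* against controls this was with quantile normalization (0.00287) and over 1-library omissions (-0.13 to 0.0933), and for *Gli1* over omissions (-0.46 to 0.14). Against heterozygotes they were *Gli1* (-0.78 to 0.44), *Gli3* (-0.27 to 0.0564) and *Sufu* (-0.10 to 0.0257, and 0.0383 with the length trend removed). In heterozygotes against controls they were *Ptch1* (-0.0709 to 0.15), *Boc* (-0.17 to 0.0281) and *Gli1* (-0.70 to 0.53, and -0.0477 with a pseudocount of 0.1). *Gli1* had the fewest reads, as few as 3 in a library.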
